A study of Mus musculus with 6 samples.

Results

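Fibroblast growth factors (FGF), hepatocyte growth factor (HGF) and their receptors were examined in dermal fibroblasts sorted from mouse ears. The genes were Fgf2, Fgf7, Fgf10 and Fgf18 (ligands), Fgfr1, Fgfr2, Fgfr3 and Fgfrl1 (receptors and a receptor-like protein), Hgf, and its receptor gene Met. Every probe set annotated to 1 of these genes and to no other was taken, which gave 20 probe sets for the 10 genes, of 45037 probe sets that are not controls and 18193 genes in all. Normal dermal fibroblasts (NDF) were taken at 4 months of age from normal ears of male FVB/n mice without the transgene. The cancer-associated fibroblasts (CAF) were taken at that age from ears with visible dysplasia in male K14-HPV16 mice, whose strain the labels give only as HPV16 and which carry papillomavirus genes under a keratin promoter active in basal keratinocytes. The transgene itself was not measured here. Cells of both groups were sorted for the surface receptor PDGFRα from suspensions of ears of 15 mice per genotype. Each group has 3 arrays, called biological repetitions in the labels, which do not say whether each was a separate pool of mice, so p-values here speak only of the spread among these arrays, which may be technical. Values are deposited log2 intensities of Affymetrix arrays, and the number of arrays limits the precision.

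FGFs and HGF are secreted or released by mesenchymal cells and act on neighbouring cells through receptor tyrosine kinases. In skin, FGF7 and FGF10 of the dermis signal to an epithelial splice form of FGFR2, and HGF of fibroblasts signals to MET on epithelium, so that the stroma feeds the growth and repair of the epidermis. FGFs bind heparan sulphate on the cell surface and in the matrix, which holds them near their source and helps them engage their receptors. In cartilage, which the ear contains, FGF18 and FGFR3 act on chondrocytes.

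The sort marker Pdgfra was at 12.46 ± 0.15 (log2, SD, n = 3) in NDF and 12.54 ± 0.11 in CAF. Averaged over 15 fibroblast markers, the level on the 6 arrays lay between 11.50 and 11.91, so the markers of the labelled cell type were high in both groups. Markers of other cell types were measured too, on a scale where the median probe set had a mean of 4.84. The mean of 24 keratinocyte markers was 6.92 to 7.02 on the NDF arrays and 7.82 to 8.99 on the CAF arrays, and that of 15 macrophage and dendritic cell markers 4.88 to 5.50 and 6.88 to 8.25. The mean of 13 endothelial markers was 5.40 to 5.66 and 6.61 to 7.57. That of 7 neutrophil markers was 4.15 to 5.40 and 8.49 to 9.95. That of 10 chondrocyte markers was 10.18 to 10.48 on the NDF arrays and lower, 9.24 to 9.83, on the CAF arrays. CAF replicate 3 stood apart from its group. Its median absolute deviation from the group mean over all probe sets was 0.31, against 0.13 to 0.22 on the other arrays. In sorted bulk samples, fewer cells of a type and less RNA per cell cannot be told apart.

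No gene of the FGF and HGF set passed the test over all genes. At an adjusted p under 0.05 (limma, Benjamini-Hochberg over all genes), 0 of the 10 genes passed, where 0.517% of all genes did, 0.489% higher and 0.0275% lower in CAF. At an unadjusted p under 0.05, 0 genes were higher and 2 were lower in CAF, against 4.93% and 4.02% of all genes. Those 2, Fgfrl1 and Fgf18, were also the members whose CAF arrays all lay below all NDF arrays, as they did for 8.66% of genes. In 0 members did all CAF arrays lie above all NDF arrays, against 6.78% of genes, and the 2 kinds together made up 15.4% of genes. The differences of the 10 genes, CAF minus NDF, ran from -0.72 for Fgfrl1 to 0.83 for Hgf, with 3 above 0 and 7 below. Of all 18193 genes, 8093 lay above 0 and 10100 below. The median of the 10 genes was -0.23, beside -0.04 for all genes. Of the 20 probe sets, each also tested on its own over all probe sets, 0 passed, where 0.162% of all did (0.144% higher, 0.0178% lower), and the lowest adjusted p was 0.39. At an unadjusted p under 0.05, 0 probe sets were higher and 3 lower, against 3.82% and 3.18% of all probe sets. The groups did not overlap on 5 of the 20, 2 higher and 3 lower, against 12.8% of all probe sets, 5.69% higher and 7.14% lower.

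**Figure D1:**
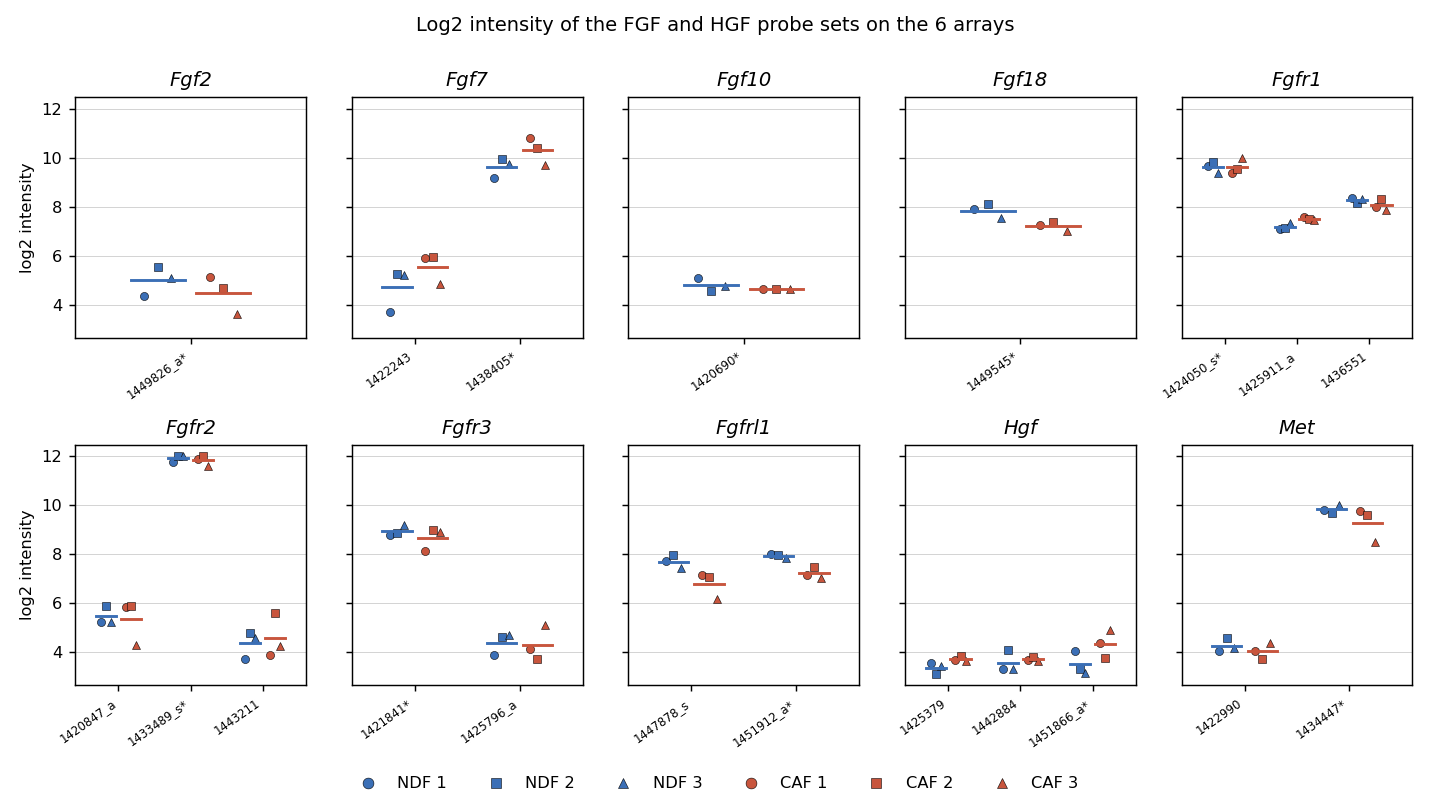
Log2 intensity of the 20 probe sets on each array, by gene; blue symbols are the 3 NDF arrays, red symbols the 3 CAF arrays, bars the group means, and an asterisk marks the probe set used for the gene. Both probe sets of Fgfrl1 and that of Fgf18 have all CAF arrays below all NDF arrays, while most others overlap.

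Fgf7, the keratinocyte growth factor that dermal fibroblasts supply to the epidermis, had the largest positive difference among the FGF ligands. Its brighter probe set, 1438405_at, read 9.17, 9.96 and 9.75 on NDF arrays 1 to 3 and 10.80, 10.40 and 9.71 on CAF arrays 1 to 3. CAF replicates 1 and 2 exceeded every NDF array, whereas CAF replicate 3 lay among them. The group means were 9.63 ± 0.41 and 10.30 ± 0.55 (SD, n = 3). CAF were thus 0.67 ± 0.34 (SE) higher, or 1.59-fold (adjusted p = 0.664). The 95% interval of the difference, -0.14 to 1.49, takes in values from about no change to 2.81-fold. The dimmer probe set, 1422243_at, read 3.71, 5.26 and 5.22 in NDF and 5.89, 5.95 and 4.83 in CAF, a difference of 0.83 ± 0.51 (SE). On both probe sets NDF replicate 1 was the lowest array and CAF replicate 3 the lowest of its group. Without CAF replicate 3 the difference of the brighter probe set was 0.97 (adjusted p = 0.232), without NDF replicate 1 it was 0.44 (adjusted p = 0.937), and without CAF replicate 1 it was 0.42 (adjusted p = 0.747).

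Both probe sets of Fgf7 leaned the same way, as did all those of Fgfr3, Fgfrl1, Hgf and Met. Of these genes, only Fgf7 and Fgfrl1 have a sequence printed here. The Fgf7 sequence lies before its annotated start. It covers the 250 bases at chr2:126034408-126034657, plus strand, from RefSeq on GRCm38.p6, as do the other sequences printed here, and 9 of the 10 members had an entry there. Motifs were searched on both strands of these 250 bases: TGANTCA for AP-1, GGGCGG for the Sp1 box, CCAAT for the CCAAT box, TATAAA for the TATA box, and the NF-κB consensus. Capitals mark each match.
Fgf7: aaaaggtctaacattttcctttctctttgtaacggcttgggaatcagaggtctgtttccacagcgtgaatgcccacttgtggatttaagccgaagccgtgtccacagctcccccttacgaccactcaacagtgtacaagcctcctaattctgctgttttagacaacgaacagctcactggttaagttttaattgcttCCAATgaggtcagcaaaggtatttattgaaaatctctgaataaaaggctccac
This window held 1 CCAAT box and none of the other letters. CCAAT occurs in 33.8% of all 32851 windows of this length, TGANTCA in 6.75%, GGGCGG in 32.7%, TATAAA in 12.4% and the NF-κB consensus in 3.90%. Its GC content was 43.6%, beside a median of 52.4% for all windows.

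Fgf10, which shares the epithelial receptor of FGF7, was dim on all arrays. Its probe set read 5.11, 4.57 and 4.78 in NDF and 4.63, 4.64 and 4.64 in CAF. The CAF arrays lay inside the NDF range, and the difference was -0.18 ± 0.20 (SE, adjusted p = 0.891), or -0.30 to -0.03 with each array left out in turn. Fgf2, basic FGF, which leaves cells without a signal peptide and stimulates fibroblasts and endothelium, read 4.34, 5.56 and 5.10 in NDF and 5.13, 4.68 and 3.61 in CAF. The groups overlapped widely, and CAF replicate 3 was the lowest array. Its difference of -0.53 ± 0.47 (adjusted p = 0.854) was -0.09 without that array and -0.25 without NDF replicate 2, but -0.85 without NDF replicate 1 and -0.85 without CAF replicate 1. The used probe sets of Fgf2, Fgf10 and Hgf were the 3 dimmer than the median probe set, whose mean was 4.84.

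Fgf18, a ligand with known roles in cartilage and in the hair follicle, was lower on every CAF array than on any NDF array. Its probe set, 1449545_at, read 7.91, 8.09 and 7.53 in NDF and 7.27, 7.36 and 6.99 in CAF. The highest CAF array lay just under the lowest NDF array. Group means were 7.84 ± 0.29 and 7.21 ± 0.19 (SD, n = 3), and the difference was -0.64 ± 0.22 (SE) or 1.55-fold lower in CAF, with an unadjusted p of 0.0236 and an adjusted p of 0.429. The interval ran from -1.16 to -0.12. Leaving out any 1 array gave differences between -0.79 and -0.51, none of them past the threshold.

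Fgfrl1 encodes a receptor-like protein that binds FGFs and heparin but lacks the tyrosine kinase domain, and it is known from cartilage and muscle. Its used probe set, 1451912_a_at, read 8.03, 7.96 and 7.83 in NDF and 7.14, 7.50 and 7.02 in CAF. All 3 CAF arrays were lower than all 3 NDF arrays. The means were 7.94 ± 0.10 and 7.22 ± 0.25 (SD, n = 3), and the difference was -0.72 ± 0.20 (SE) or 1.65-fold lower in CAF. The interval was -1.19 to -0.26, the unadjusted p 0.00821 and the adjusted p 0.268, the lowest of the 10 genes. The other probe set, 1447878_s_at, read 7.71, 7.95 and 7.45 in NDF and 7.13, 7.09 and 6.16 in CAF. Again no array overlapped, and the difference was -0.91 ± 0.31 (SE, adjusted p = 0.573 over all probe sets). CAF replicate 3 was the lowest array on both probe sets, and without it the differences were -0.62 and -0.59. Of the 10 chondrocyte markers, 6 had all their CAF values below all their NDF values, against 8.66% of all genes. Over all genes 0 of these markers passed, where 0.0275% of all genes passed as lower, and the list median was -0.90. Among them Col2a1, the chain of cartilage collagen, was at 10.29 ± 0.39 and 8.94 ± 0.57 (adjusted p = 0.229), while Acan, the cartilage proteoglycan, differed by -0.38. Their part in the values of Fgf18 and Fgfrl1 was not tested.

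Sequences before the starts of Fgfrl1 and Fgf18 are shown because these were the members with no overlap between the groups. They lie at chr5:108693979-108694228, plus strand, and chr11:33147401-33147650, minus strand, and both are printed 5′ to 3′ along the gene with motif matches in capitals.
Fgfrl1: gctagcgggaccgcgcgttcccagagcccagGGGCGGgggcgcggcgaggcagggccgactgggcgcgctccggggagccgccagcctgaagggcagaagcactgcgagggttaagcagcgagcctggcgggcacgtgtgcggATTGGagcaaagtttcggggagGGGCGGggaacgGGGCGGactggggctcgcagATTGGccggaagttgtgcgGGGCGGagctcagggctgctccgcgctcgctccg
Fgf18: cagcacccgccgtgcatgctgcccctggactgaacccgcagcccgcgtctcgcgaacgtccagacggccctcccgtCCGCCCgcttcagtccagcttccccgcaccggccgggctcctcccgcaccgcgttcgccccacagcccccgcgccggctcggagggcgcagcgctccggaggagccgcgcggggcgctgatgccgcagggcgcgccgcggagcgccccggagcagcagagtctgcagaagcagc
The Fgfrl1 window had a GC content of 73.6% and held 4 Sp1 boxes and 2 CCAAT boxes, the latter on the opposite strand. The Fgf18 window had a GC content of 77.2% and held 1 Sp1 box, also on the opposite strand. In neither was the AP-1, TATAAA or NF-κB sequence found. None of the matches in the 3 printed windows overlapped another motif.

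**Figure D2:**
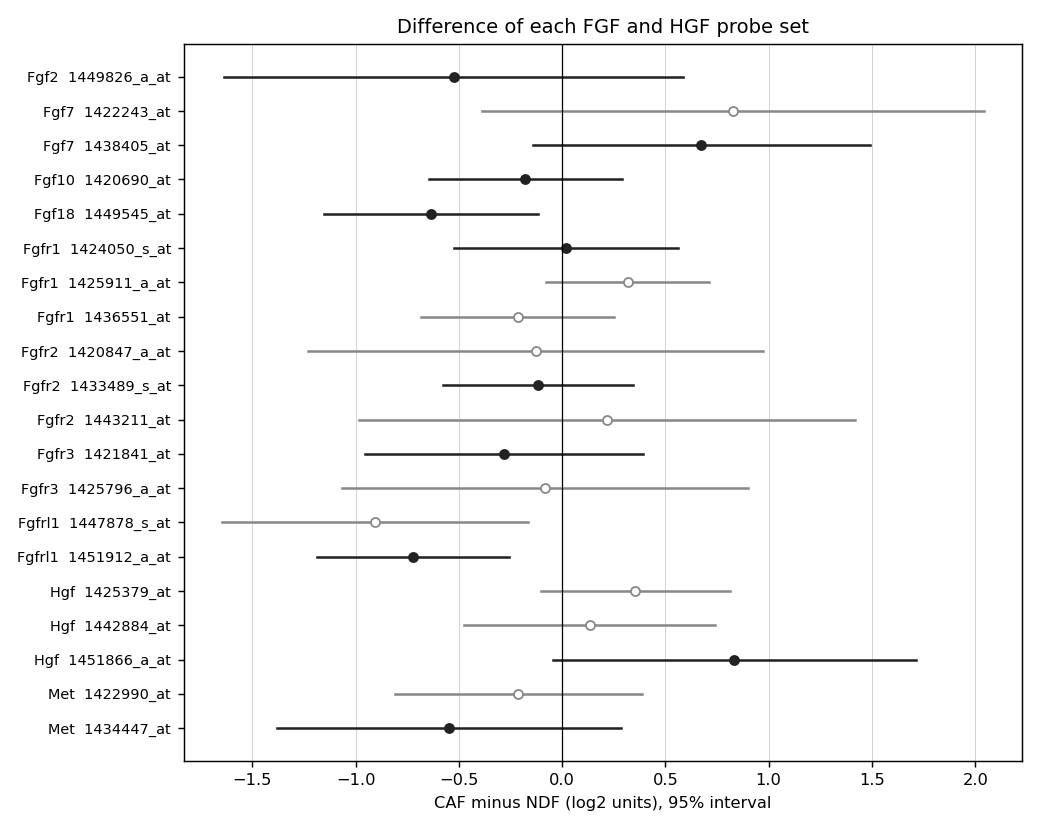
Difference of each probe set, CAF minus NDF in log2 units, as points with 95% intervals from limma; filled black points are the probe sets used for a gene, from the fit over all genes, and open grey points the others, from the fit over all probe sets. The intervals of Fgf18 and of both Fgfrl1 probe sets lie below 0, and all others include 0.

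Fgfr2, whose epithelial splice form binds FGF7 and FGF10, read 11.78, 12.02 and 12.02 in NDF and 11.89, 12.01 and 11.58 in CAF on its brightest probe set, 1433489_s_at. The difference was -0.12 ± 0.19 (SE, adjusted p = 0.942), and its interval of -0.58 to 0.34 corresponds to CAF levels of 0.67 to 1.27 times those of NDF. The dim probe sets 1420847_a_at and 1443211_at differed by -0.13 and 0.22, with intervals of -1.23 to 0.97 and -0.98 to 1.42. The annotation does not say which splice form each probe set reads.

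Fgfr1, the main FGF receptor of mesenchymal cells, had 3 probe sets that did not move together. The brightest, 1424050_s_at, read 9.65, 9.82 and 9.38 in NDF and 9.39, 9.55 and 9.97 in CAF, a difference of 0.02 ± 0.23 (SE, adjusted p = 0.994). On 1425911_a_at all CAF arrays, at 7.58, 7.49 and 7.47, lay above the NDF arrays, at 7.10, 7.15 and 7.33, with a difference of 0.32 ± 0.17 (SE, adjusted p = 0.829 over all probe sets). On 1436551_at the groups overlapped and the difference was -0.22.

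Fgfr3, a receptor of cartilage and epidermis, read 8.80, 8.87 and 9.20 in NDF and 8.11, 9.01 and 8.91 in CAF on 1421841_at. Only CAF replicate 1 lay below the NDF arrays, and the difference of -0.28 ± 0.28 (SE, adjusted p = 0.876) was 0.0002 without it, and -0.45 without CAF replicate 2. CAF replicate 1 had the lowest chondrocyte marker mean, 9.24, and the highest keratinocyte marker mean, 8.99. On CAF replicates 2 and 3 the chondrocyte marker mean, 9.83 and 9.44, also lay below that of every NDF array. The part of these markers in the values of Fgfr3 was not tested. The dimmer probe set, 1425796_a_at, differed by -0.08. On their used probe sets, the intervals of Fgf10, Fgfr1, Fgfr2 and Fgfr3, 4 of the 10 genes, lay within 2-fold in either direction. The intervals of the dim Fgfr2 probe sets and of Fgfr3 1425796_a_at, the latter -1.06 to 0.90, did not. On the used probe sets of the other 6 genes the interval took in a 2-fold change.

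Hgf, the fibroblast ligand of MET, was dim on all 3 of its probe sets. Its used probe set, 1451866_a_at, read 4.07, 3.32 and 3.17 in NDF and 4.37, 3.76 and 4.92 in CAF. CAF replicates 1 and 3 exceeded every NDF array, and CAF replicate 2 lay below NDF replicate 1. Means of 3.52 ± 0.48 and 4.35 ± 0.58 (SD, n = 3) gave a difference of 0.83 ± 0.37 (SE, unadjusted p = 0.0599, adjusted p = 0.591) and an interval of -0.05 to 1.71. The difference was 0.55 without CAF replicate 3 and 1.13 without CAF replicate 2. On 1425379_at the CAF arrays, 3.69, 3.83 and 3.66, all lay above the NDF arrays, 3.58, 3.11 and 3.42, and the difference was 0.35 ± 0.19 (SE). On 1442884_at it was 0.13, with NDF replicate 2 the highest array. Averaged over its probe sets, Hgf differed by 0.44 (adjusted p = 0.52). All 3 probe sets had means in the lowest 33.9% of probe sets on the array, where a fold is a value on this scale and not a ratio of transcripts. The marker means of macrophages and dendritic cells and of endothelium were higher on every CAF array than on any NDF array. The part of these markers in the values of Hgf was not tested.

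Met, the HGF receptor, read 9.80, 9.69 and 10.02 in NDF and 9.75, 9.61 and 8.50 in CAF on 1434447_at. CAF replicates 1 and 2 lay near or inside the NDF range, and CAF replicate 3 lay more than a log2 unit below every other array. The difference of -0.55 ± 0.35 (SE, adjusted p = 0.767) was -0.15 without CAF replicate 3 and -0.78 without CAF replicate 1. The dim probe set 1422990_at differed by -0.21. Fgfr2 and Met are also genes of epithelium, and the mean of the keratinocyte markers was higher on every CAF array than on any NDF array. Of these markers 3 of 24 passed the threshold as higher, against 0.489% of all genes, and their median difference was 1.21. Basal Krt14, for example, was at 9.39 ± 0.40 and 11.58 ± 0.79 (adjusted p = 0.114). The part of these markers in the values of Fgfr2 and Met was not tested.

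**Figure D3:**
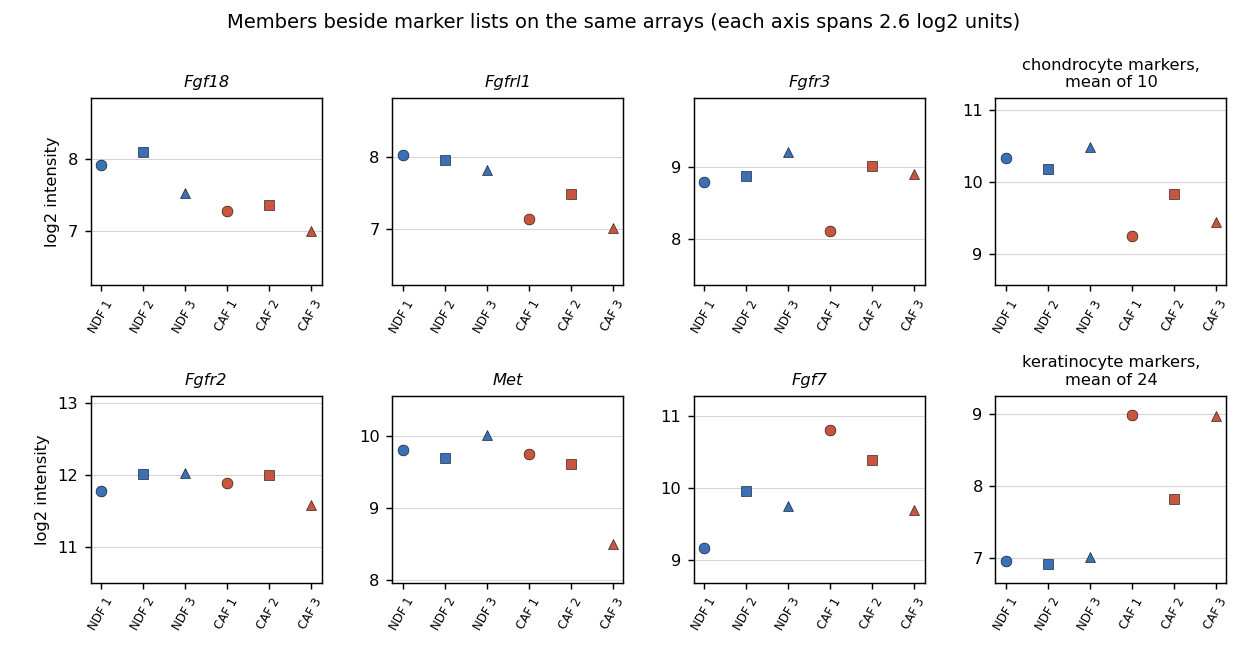
Log2 intensity on each array for 6 members and for the mean of 10 chondrocyte and 24 keratinocyte markers, with NDF arrays in blue and CAF arrays in red; every panel spans the same number of log2 units. Fgf18, Fgfrl1 and the chondrocyte mean lie lower on the CAF arrays, the keratinocyte mean lies higher on them, and the values of Fgfr2 and Met overlap between the groups.

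Of the 10 genes, 7 had more than 1 probe set, and in 5 of them (Fgf7, Fgfr3, Fgfrl1, Hgf and Met) all probe sets differed in 1 direction. Fgfr1 and Fgfr2 had probe sets on both sides of 0. CAF replicate 3 was the lowest of the 6 arrays for 8 of the 20 probe sets, against 25% of all probe sets, and the highest for 3, against 33.9%. It set the minimum for Fgf2, Fgf18, both Fgfrl1 probe sets, the bright probe sets of Fgfr2 and Met, Fgfr1 1436551_at and Fgfr2 1420847_a_at.

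The genes whose profiles over the 6 arrays were nearest to each member were found by the root mean square difference of profiles, each centred on its own mean. This describes likeness on 6 arrays, among about 11149 genes, and carries no test. For Fgf7 they were the complement protease gene C1s1, at 0.10 log2 units, and the interferon-induced gene Ifit2, at 0.13. Fgfr3 lay nearest to Sox9, the master regulator of chondrocytes, at 0.11, and to the proteoglycan gene Cspg4, at 0.13. Met lay nearest to Gopc, at 0.04, and to Ptpn11, the phosphatase SHP2 that acts downstream of FGF and HGF receptors, at 0.05, both with their lowest value on CAF replicate 3. Fgf18 lay nearest to Glis2 and Zfp644, at 0.08 and 0.09, and Fgfrl1 to Asb1 and Gpatch8, at 0.09 and 0.09. Fgf2 lay nearest to Fbln7 and Nudt16, at 0.13 and 0.14. The nearest genes to Hgf, Fzd6 and Incenp, were farther, at 0.18 and 0.18. Fgf10, Fgfr1 and Fgfr2 varied by less than 1 log2 unit over the arrays and were not compared.

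Among the other FGF ligands 0 of 18 measured genes passed over all genes in either direction by limma, and 0 had an unadjusted p under 0.05. In 0 did the groups separate, against 15.4% of all genes. Their median difference was -0.16, beside -0.04 for all genes. Of the 18, 15 lay below 0, as did 10100 of all 18193 genes. The smallest p values belonged to Fgf20, with means of 4.37 ± 0.11 and 4.03 ± 0.30 (adjusted p = 0.751), and Fgf14, with means of 6.85 ± 0.26 and 5.92 ± 1.34 (adjusted p = 0.786). Fgf14, an intracellular FGF of neurons, was low on CAF replicate 3 alone, at 4.39. Its interval was -2.42 to 0.55, and 3 further Fgf14 probe sets had a median difference of 0.64, in the opposite direction. Fgf15, a hormone of the intestine, and Fgf16 were dim and differed by -0.23 and -0.22 (adjusted p = 0.845 and 0.862).

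Among 18 other receptors, coreceptors and carriers, 0 passed and 1 was lower at an unadjusted p under 0.05, where 4.02% of all genes were, a share near that of the list. In 3 the CAF values lay wholly below the NDF values, and in 0 above, against 8.66% and 6.78% of all genes. The gene with the smallest p was Gpc6, a glypican that carries heparan sulphate at the cell surface. It read 11.13, 11.18 and 11.31 in NDF and 10.06, 10.43 and 9.68 in CAF, all CAF arrays below all NDF arrays. The difference was -1.15 ± 0.23 (SE, adjusted p = 0.124). The median difference on 4 further Gpc6 probe sets was -0.53. The glypican Gpc4 and the syndecan Sdc2 also had no overlap, at -0.40 and -0.74 (adjusted p = 0.57 and 0.613), with medians of -0.27 and -0.46 on their further probe sets. Fgfbp1, an epithelial carrier that frees FGFs from the matrix, was at 6.23 ± 0.29 and 7.21 ± 1.07 (adjusted p = 0.677). The median of the list was -0.01.

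Of 16 measured genes of enzymes that build and edit heparan sulphate, 14 lay below 0, as did 10100 of all 18193 genes. In this list 0 passed. At an unadjusted p under 0.05, 4 were lower, and 6 had CAF values wholly below the NDF values, against 4.02% and 8.66% of all genes. Their median was -0.31, beside -0.04 for all genes. The sulphotransferase gene Hs6st2 read 8.56, 6.64 and 7.20 in NDF and 6.05, 4.66 and 3.90 in CAF, a difference of -2.60 ± 0.67 (SE, adjusted p = 0.235). On 3 further Hs6st2 probe sets the median difference was -0.04. Hs3st3b1, which adds another sulphate, was at 10.25 ± 0.13 and 9.53 ± 0.29 (adjusted p = 0.311), while 3 further Hs3st3b1 probe sets had a median difference of -0.03. Hs2st1 and the glycosyltransferase gene Extl2 differed by -0.54 and -0.54 (adjusted p = 0.421 and 0.457), while 3 further Hs2st1 probe sets gave a median of 0.17 and a further Extl2 probe set gave -0.19.

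Genes that act below the FGF receptors included 1 that was higher at an unadjusted p under 0.05, of 19 measured, where 4.93% of all genes were, a share near that of the list. Over all genes 0 passed. No overlap between the groups was seen for 2 with CAF higher and 3 with CAF lower, against 6.78% and 8.66% of all genes. The gene with the smallest p was Dusp6, a phosphatase that switches off ERK and is induced by FGF and other ERK signals. It read 8.96, 9.18 and 8.46 in NDF and 9.63, 9.74 and 10.33 in CAF, with no overlap and a difference of 1.03 ± 0.28 (SE, adjusted p = 0.271). The feedback inhibitor gene Spry4 was at 6.03 ± 0.37 and 6.82 ± 0.73 (adjusted p = 0.656). Its 3 further probe sets gave a median difference of 0.18. Il17rd, another inhibitor of FGF signalling, differed by -1.10 ± 0.52, and Cbl, which marks receptors for degradation, by -0.91 ± 0.52. Both had CAF replicate 3 far below the other arrays, at 4.44 and 6.68. A further Il17rd probe set gave -0.21, and 2 further Cbl probe sets had a median of 0.21, in the opposite direction. The FGF target genes Etv4 and Etv5, named after their values were seen, differed by 0.05 and -0.30. The median of the list was -0.09.

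Of 17 genes that activate HGF, inhibit its activation or belong to the related MST1 pathway, 0 passed, and a single gene had an unadjusted p under 0.05 with CAF higher, against 4.93% of all genes. The groups did not overlap for 3 with CAF higher and 1 with CAF lower, against 6.78% and 8.66% of all genes. The gene with the smallest p was Plaur, the urokinase receptor, which is also a gene of myeloid cells. It read 6.43, 6.32 and 5.73 in NDF and 6.95, 7.41 and 6.97 in CAF, with no overlap and a difference of 0.95 ± 0.26 (SE, adjusted p = 0.265). Macrophage and dendritic cell markers had a median difference of 2.56 on these arrays, and their part in the value of Plaur was not tested. Cd44, a hyaluronan receptor whose variants assist MET, was at 10.85 ± 0.25 and 11.30 ± 0.07 (adjusted p = 0.575), with a median difference of 0.72 on 3 further probe sets, and Klkb1, plasma kallikrein, differed by 0.39 at a dim level. Spint2, an inhibitor of HGF activator made by epithelia, was at 5.90 ± 1.06 and 6.63 ± 0.43 (adjusted p = 0.802), and its other probe set gave 0.46. The list had a median of 0.12.

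**Figure D4:**
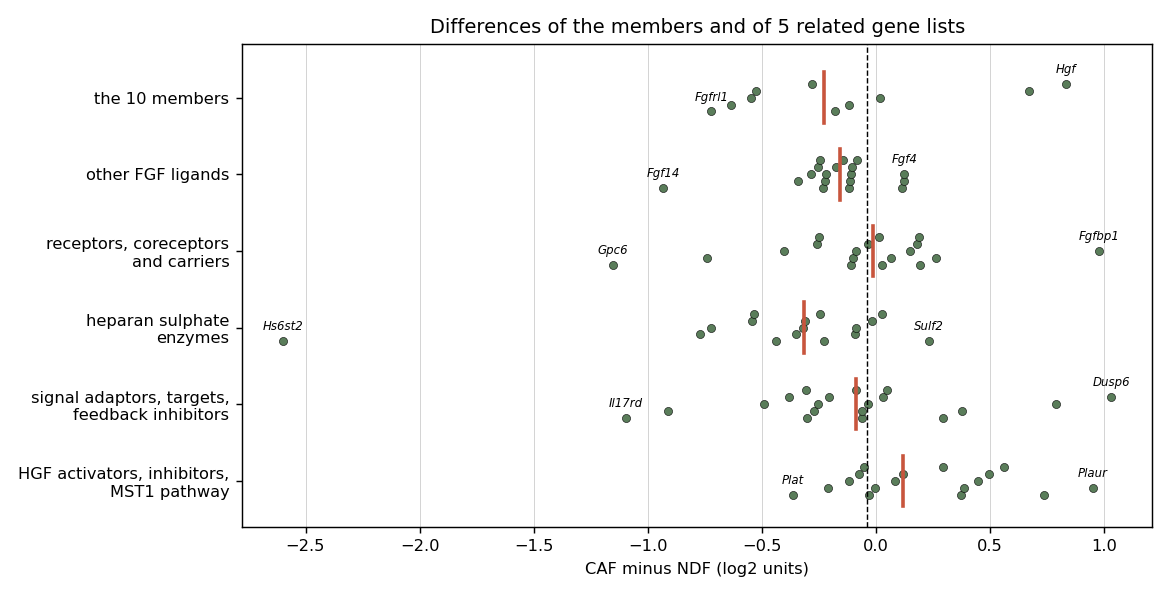
Difference of each gene, CAF minus NDF in log2 units, for the 10 members and 5 related lists; each point is a gene, the red bar is the list's median, the dashed line the median of all genes (-0.04), and the outermost genes are named. The heparan sulphate enzymes have a median of -0.31 and hold the most negative value, Hs6st2 at -2.60.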

How the data were processed

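The deposited table holds log2 probe set values of 6 Affymetrix expression arrays, which the authors made with GCOS and RMA per the submitters' processing notes, from RNA amplified once with the WT-Ovation kit per the labels' protocols. No tool version or genome build is given in the sources used here. The values ran from 2.20 to 14.60. Of 45101 probe sets 64 were controls. The platform annotation named 1 gene for 34945, several for 932 and none for 9160 of the others. A gene was represented by its probe set of highest average across the 6 arrays (18193 genes), with no filter on dim values. The groups were tested in limma 3.58.1 (lmFit, eBayes, two-sided) under R 4.3.3, with group as the only term, and p values were adjusted by the Benjamini-Hochberg method over all genes, or over all 45037 probe sets for probe sets other than the used one. The fit was tested on simulated data. Members, related lists and tests were chosen with earlier results of these data known. All members were described, and of each related list the genes that passed and otherwise the 4 with the smallest p, of cell type markers the first listed. Esrp1, Esrp2, Etv4 and Etv5 were named outside that rule. Normalisations, variance models, array weights, filters, probe set choices, thresholds and leaving out arrays were varied in 20 alternatives. Promoter sequences came from RefSeq tables, and matplotlib 3.10.9 (Python 3.11.15) made the figures.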

Additional observations from a re-analysis of the deposited data

How the results depend on the processing

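Under all 20 alternatives 0 of the 10 member genes and, in the 18 that apply to them, 0 of the member probe sets passed the threshold, with a lowest adjusted p of 0.0729 for Fgfrl1 with array quality weights. Of 329 recomputed member differences 309 kept their direction and 20 changed it, all in Fgfr1, Fgfr2 and Fgfr3. Fgfr1 was at -0.11 with array quality weights and -0.13 without CAF replicate 3 and NDF replicate 1 together. It was at -0.15 to 0.14 when each array was left out in turn. Probe sets of the suffixes _x_at, _s_at and _a_at can match several transcripts or genes. Without them Fgfr1 was at -0.22, because another probe set, 1436551_at, then stood for the gene. Fgfr2 was at 0.22 without those suffixes, where 1443211_at stood for the gene, and at -0.21 to 0.0059 without each array. The Fgfr2 probe set 1420847_a_at was at 0.33 with weights and 0.28 without CAF replicate 3 and NDF replicate 1 together. Without each array it was at -0.40 to 0.39. The Fgfr2 probe set 1443211_at was at -0.20 with weights and -0.29 to 0.56 without each array. Fgfr3 was at -0.45 to 0.0002 without each array, and its probe set 1425796_a_at at 0.0031 on quantile normalisation and -0.48 to 0.22 without each array. Other than for the swaps of probe set, the cause was not tested.

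The count of called genes, 94, was 20 with a replicate block (Fgfrl1 -0.72, adjusted p = 0.465), 155 with an intensity trend, 438 with array quality weights, 198 at an adjusted p under 0.1, and 5 (without NDF replicate 3) to 156 (without CAF replicate 3) without each array. With array quality weights 78.3% of the calls were higher in CAF, against 94.7%. The count of called probe sets, 73, was 24 on quantile normalisation, 8 with the block, 148 with a trend and 446 with weights. It was 22 without CAF replicate 3 and NDF replicate 1 together, 192 at an adjusted p under 0.1, and 7 to 78 without each array. With array quality weights 1 coreceptor or carrier gene, Gpc6 at -1.11 (adjusted p = 0.0174), and 1 heparan sulphate enzyme gene, Hs3st3b1 at -0.94 (adjusted p = 0.0289), passed, and no other setting called a gene of the related lists. Filters on dim probe sets and on suffixes left some members without a value. The median of all genes was between -0.05 and 0.001 under the scalings tried. Deviations from the group means correlated at -0.14, 0.14 and -0.04 for replicate numbers 1, 2 and 3. With 3 arrays per group these values cannot settle whether the numbers pair the samples.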

Other observations

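The splicing regulators that favour the epithelial form of FGFR2 were measured among the keratinocyte markers, and are named here after their values were seen. Esrp1 was at 9.25 ± 0.24 (log2, SD, n = 3) in NDF and 10.52 ± 1.02 in CAF (limma adjusted p = 0.506), with overlapping groups. Esrp2 was at 11.03 ± 0.06 and 10.44 ± 0.61 (adjusted p = 0.676), with all CAF arrays lower, while its other probe set differed by 0.79. Neither passed the threshold.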
